A study of Homo sapiens with 6 samples.

Results

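The genes described here are 10 core genes of the NF-κB pathway, read in HPNE-hTERT cells after 4 days of FOLFIRINOX or vehicle. They were taken by gene name (NFKB1, NFKB2, REL, RELA, RELB, NFKBIA, NFKBIB, NFKBIE, NFKBIZ and TNFAIP3) from a table of 62754 genes, and each name matched 1 row. HPNE-hTERT is a non-malignant human pancreatic line immortalized with telomerase and labelled as ductal epithelium, grown in medium with serum and epidermal growth factor. The treated group received oxaliplatin at 5 µM, SN-38 (the active form of irinotecan) at 25 nM and 5-fluorouracil at 10 µM, a treatment that the labels describe as inducing senescence. The control group is labelled DMSO. Each group has 3 libraries, named by a P number (P14, P15 or P19) in the columns, and all 6 come from the same line. The study's title ties iron in mitochondria to ferroptosis of senescent cells, and this comparison asks which RNAs differ after the drugs. Because RNA was pooled from whole cultures, fewer cells with an RNA and less of it per cell cannot be told apart.

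NF-κB factors are dimers of Rel proteins. RELA, RELB and REL carry transactivation domains, while NFKB1 and NFKB2 encode the precursors p105 and p100, which are processed to the DNA-binding subunits p50 and p52 and which also hold other subunits in the cytoplasm until then. The IκB proteins encoded by NFKBIA, NFKBIB and NFKBIE retain dimers in the cytoplasm until the IκB kinase (IKK) complex marks them for destruction. NFKBIZ encodes the nuclear protein IκBζ, which works with p50 at a subset of target genes, and TNFAIP3 encodes A20, a ubiquitin-editing enzyme that limits signalling to IKK. Many of these genes are themselves NF-κB targets, and in senescent cells the pathway is known for driving secreted cytokines.

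Gene reads summed to 83981154 to 97762802 per library. Values below are reads divided by the authors' size factors (normalized reads), and log2 differences are FOLFIRINOX minus vehicle on the log2(value + 1) scale. A gene is said to be called when its limma adjusted p was under 0.05 over the 17951 genes that reached 10 normalized reads in 3 or more libraries. Mitochondrial ribosomal RNA made up 1.18% to 2.74% of reads in FOLFIRINOX and 0.552% to 0.864% in vehicle, highest in the P14 library of each group, and its part in the results was not tested. The cell cycle inhibitor gene CDKN1A was higher in FOLFIRINOX by 3.22 and the proliferation marker MKI67 was lower by 8.78 on the log2 scale, both called. Of 9 ductal epithelial markers, KRT18, KRT8 and SOX9 were well expressed and KRT7, CDH1 and MUC1 low, but EPCAM, KRT19 and CFTR stayed under 10 normalized reads in all but 1 library (17.7 for KRT19 in FOLFIRINOX P15). The mesenchymal gene VIM stood at 259737 to 290561 in FOLFIRINOX and 459286 to 559069 in vehicle. Of 9 mesenchymal markers, all tested, 6 were called lower, as were 2 of the 6 ductal markers that could be tested. Of all genes tested, 12.2% were called lower. The ductal markers summed to 8962 to 9959 and 11979 to 14439.7 normalized reads, and their part in the results below was not tested. Of 8 leukocyte markers, 5 were too low to test. The 8 summed to 45.3 to 120 normalized reads in FOLFIRINOX and 76.4 to 150 in vehicle, and the 7 acinar and endocrine markers to at most 6.17.

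All 10 NF-κB genes passed the filter on low values. NFKB1, NFKB2 and TNFAIP3 were lower in FOLFIRINOX, and the other 7 genes, RELA and NFKBIA among them, were not called. The called count was thus 0 higher and 3 lower of 10, beside 11.4% higher and 12.2% lower of all genes tested. The median log2 difference of the 10 genes was −0.15, against 0.02 over all tested genes. Their largest difference, −0.71 in NFKB1, was exceeded in size by 28.4% of tested genes. With libraries paired by P number (replicate block), 1 gene was called higher and 3 lower, where 22.3% of all genes were higher and 21.8% lower.

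**Figure D1:**
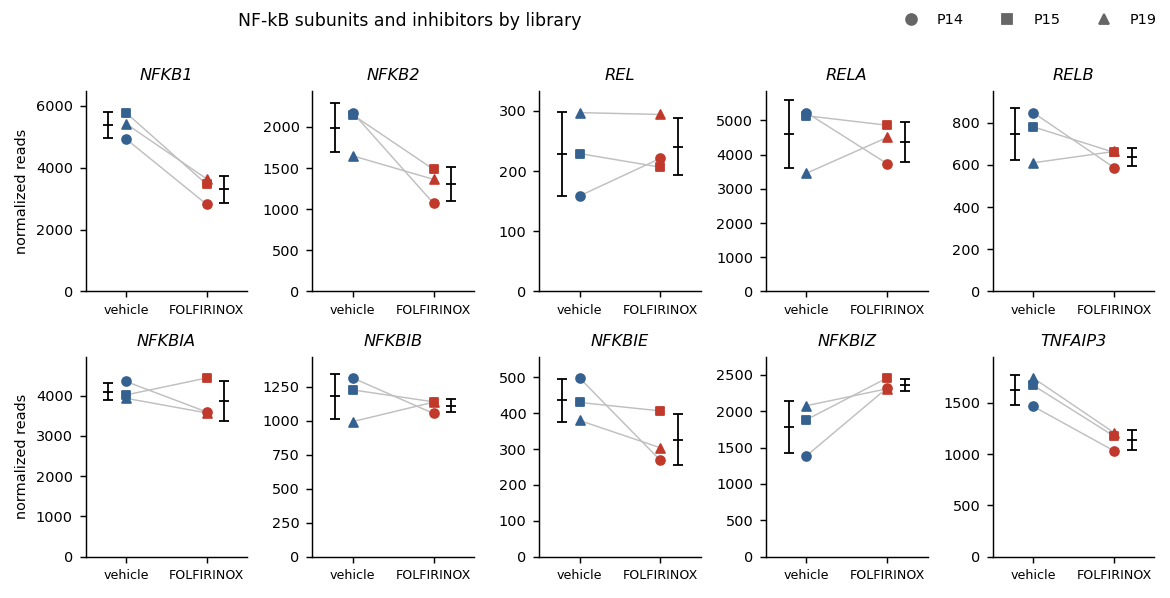
Normalized reads (y axis, from 0) of each gene in vehicle (blue) and FOLFIRINOX (red) libraries, with symbols for P number, grey lines joining libraries of the same P number, and bars for the mean ± SD of 3 libraries. The groups do not overlap for NFKB1, NFKB2, TNFAIP3 and NFKBIZ, and overlap for the other 6 genes.

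Promoter sequences are shown because most of these genes are described as targets of the factors they encode. In RefSeq windows of 300 bases (250 before to 50 after a start site, GRCh38.p14), 8 of the 10 genes were matched with 14 windows, and RELB and NFKBIE were not. The κB consensus decamer (3 G, a purine, any 2 bases, 2 pyrimidines and 2 C) was searched on both strands. Matches that overlap or lie within 12 bases of each other were counted as 1 place. At least 1 match lay in 9 of the 14 windows and in 7 of the 8 genes, compared with 11.3% of all 35116 windows and 13.3% of genes with a window. The exception was RELA, whose 2 windows had none. The stretches of 30 bases below hold matches (capitals) from the 3 called genes, from NFKBIZ and from the feedback inhibitor NFKBIA.
NFKB1: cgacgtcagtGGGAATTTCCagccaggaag
NFKB2: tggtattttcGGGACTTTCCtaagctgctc
TNFAIP3: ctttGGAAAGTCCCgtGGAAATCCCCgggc
NFKBIZ: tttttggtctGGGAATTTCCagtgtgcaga
NFKBIA: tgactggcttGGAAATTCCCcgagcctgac
Each is read 5′ to 3′ on the strand of its gene.

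The NFKB1 stretch (chr4:102501300-102501329, plus strand) has its match from 49 bases upstream of the start site. That of NFKB2 (chr10:102395674-102395703, plus strand) lies 21 bases upstream of the third of its RefSeq starts. The window of the first NFKB2 start had no match. The TNFAIP3 stretch (chr6:137867188-137867217, plus strand) holds 2 matches on the other strand, the first 67 bases upstream. The NFKBIZ match (chr3:101827757-101827786, plus strand) lies 223 bases upstream, and its capitals are the same 10 bases as in NFKB1. The NFKBIA match (chr14:35404811-35404840, minus strand) lies 81 bases upstream, on the other strand. NFKB1, NFKB2 and TNFAIP3, which were called lower, thus held matches, as did NFKBIA and NFKBIZ, which were not called. No binding was measured in these data, so a match is a description of the sequence alone.

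NFKB1, the gene of p105 and p50, lies on chromosome 4 (GRCh38, chr4:102501329-102617302, plus strand). It had 2813, 3458 and 3636 normalized reads in FOLFIRINOX P14, P15 and P19, and 4929, 5776 and 5419 in vehicle, in the same order. All 3 treated libraries were below all 3 controls, and P14 was the lowest in each group. Means were 3302 ± 433 and 5375 ± 426 (SD, n = 3 each), a log2 difference of −0.71 ± 0.16 SE (95% interval −1.07 to −0.35, limma adjusted p = 0.0099), or 1.63-fold. The difference was called under each of the 17 other settings tried, with a limma adjusted p of 1.0e-05 with the replicate block.

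NFKB2, the gene of p100 and p52 on chr10:102394110-102402529, is the precursor of the alternative NF-κB pathway. FOLFIRINOX P14, P15 and P19 held 1071, 1484 and 1363 normalized reads of it and the vehicle libraries 2174, 2148 and 1649. The groups did not overlap, though FOLFIRINOX P15 and vehicle P19 were close. The log2 difference was −0.61 ± 0.19 (95% interval −1.03 to −0.19, limma adjusted p = 0.0398), a 1.53-fold fall from 1990.0 ± 296 to 1306 ± 212. Within P numbers it was −1.02 for P14, −0.53 for P15 and −0.27 for P19. The unpaired call was lost when FOLFIRINOX P14 or P19 or vehicle P14 or P15 was left out (adjusted p = 0.128, 0.0853, 0.121 and 0.126). It was also lost with common-total scaling (0.0932) and with limma without trend (0.0856). Without both P14 libraries the unpaired difference was −0.40 (adjusted p = 0.241). Pairing by P number (replicate block) gave a limma adjusted p of 7.3e-04.

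The genes of the transactivating subunits gave no call. RELA, the p65 gene (chr11:65653596-65663094, minus strand), had 3733, 4858 and 4501 normalized reads in FOLFIRINOX P14, P15 and P19 and 5226, 5134 and 3453 in vehicle. The vehicle P19 library was the lowest of all 6 and the groups overlapped. The log2 difference was −0.06 ± 0.20, with a 95% interval of −0.50 to 0.37 (limma adjusted p = 0.851), and its sign changed under several settings. RELB, the partner of p52 (chr19:45001430-45038198), was 587, 659.9 and 664 in FOLFIRINOX against 848, 781 and 610.3 in vehicle, with a difference of −0.22 ± 0.19 (−0.63 to 0.20, adjusted p = 0.437). REL, the c-Rel gene (chr2:60881521-60931610), is best known from lymphocytes. It was low here, at 221, 207 and 294 against 159, 229 and 297, with a difference of 0.10 ± 0.27 (−0.48 to 0.69, adjusted p = 0.810). These intervals still allow falls of RELA, RELB and REL of 0.50, 0.63 and 0.48 on the log2 scale.

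The classical inhibitors were not called either. NFKBIA, the IκBα gene (chr14:35401511-35404749, minus strand), is a rapid feedback target of NF-κB. Its normalized reads were 3594, 4439 and 3571 in FOLFIRINOX P14, P15 and P19, and 4352, 4016 and 3935 in the controls. FOLFIRINOX P15 was the highest of the 6 libraries and the 2 other treated libraries were the lowest. The difference was −0.09 ± 0.16 (95% interval −0.44 to 0.26, limma adjusted p = 0.718). NFKBIB, the IκBβ gene (chr19:38899700-38908893), differed by −0.08 ± 0.17 (−0.46 to 0.30, adjusted p = 0.778), with 1053 to 1139 in FOLFIRINOX and 994 to 1314 in vehicle. It shares 40 exonic bases with the opposite-strand gene SIRT2.

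NFKBIE, the IκBε gene (chr6:44258166-44265788, minus strand), had 268, 406 and 304 normalized reads in FOLFIRINOX P14, P15 and P19 and 498, 430 and 379 in vehicle. Each treated library was below the control of its P number, but the groups overlapped through FOLFIRINOX P15. The difference was −0.43 ± 0.22 (95% interval −0.91 to 0.05, limma adjusted p = 0.181). Most of it came from P14, where it was −0.89, against −0.08 in P15 and −0.32 in P19.

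NFKBIZ moved in the other direction without passing the unpaired test. This IκBζ gene (chr3:101827991-101861022) had 2319, 2456 and 2308 normalized reads in FOLFIRINOX P14, P15 and P19 and 1386, 1882 and 2075 in vehicle, so that all treated libraries were above all controls. The treated libraries were alike (2361 ± 82.5) and the vehicle libraries spread (1781 ± 355). The difference was 0.43 ± 0.18 (95% interval 0.02 to 0.83, limma adjusted p = 0.119). Pairing by P number (replicate block) gave an adjusted p of 0.0099 and a call. Within P numbers it was 0.74, 0.38 and 0.15 for P14, P15 and P19, and without both P14 libraries the unpaired difference was 0.27 (adjusted p = 0.369).

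TNFAIP3, the A20 gene (chr6:137867188-137883312), had 1033, 1176 and 1210.3 normalized reads in FOLFIRINOX P14, P15 and P19 and 1467, 1672 and 1744 in vehicle. The groups were separate and the within-P differences nearly equal, at −0.51, −0.51 and −0.53. The mean fell from 1628 ± 144 to 1140 ± 94.2, a log2 difference of −0.51 ± 0.16 (95% interval −0.88 to −0.15, limma adjusted p = 0.0441), or 1.43-fold. Its unpaired call was lost when any single library was left out (adjusted p 0.0513 to 0.129), without both P14 libraries (0.106), with common-total scaling (0.133), with limma without trend (0.0715) and with no filter (0.0578). With the replicate block the limma adjusted p of TNFAIP3 was 0.0022. The opposite-strand RNA WAKMAR2, which overlaps 95 exonic bases of TNFAIP3, had 13.3 to 50.4 normalized reads.

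**Figure D2:**
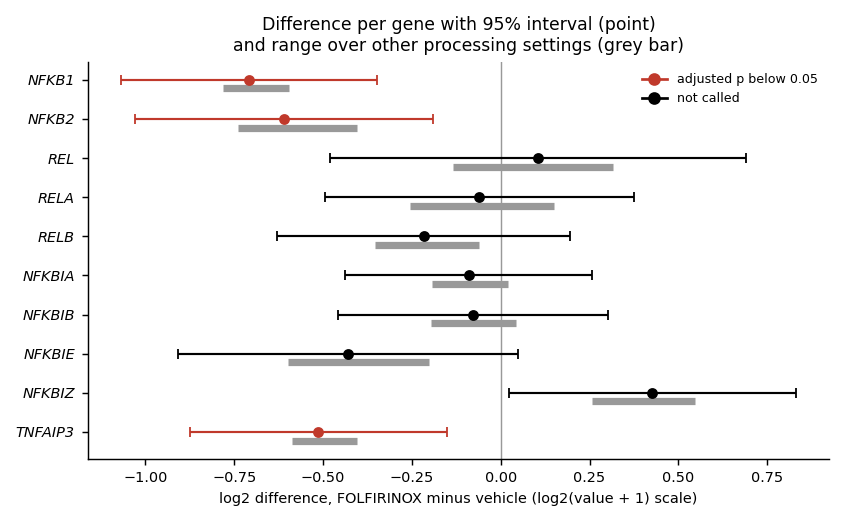
Log2 difference between FOLFIRINOX and vehicle for each of the 10 genes (x axis), as a point with its 95% limma interval, red where called, and as a grey bar for the range over the other settings. The grey bars of NFKB1, NFKB2 and TNFAIP3 lie wholly below 0, from −0.78 to −0.40 between them. Those of NFKBIE (−0.60 to −0.20) and RELB (−0.36 to −0.06), which were not called, also lie below 0. That of NFKBIZ (0.26 to 0.55) lies above 0, while those of RELA, REL, NFKBIA and NFKBIB cross 0.

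The groups did not overlap for 4 of the 10 genes, beside 39.5% of all genes tested. The FOLFIRINOX library was the lower within all P numbers for 4 genes (NFKB1, NFKB2, NFKBIE and TNFAIP3), beside 31.5% of all genes, and the higher within all for 1 (NFKBIZ), beside 33.7%. In the authors' deposited table, NFKB1, NFKB2 and TNFAIP3 had adjusted p of 0.0018, 0.0241 and 0.0357 with log2 fold changes of −0.70, −0.61 and −0.51. In that table NFKBIZ had 0.161 and the other 6 genes 0.250 to 0.911.

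Levels can be compared between genes only per length, here as normalized reads per kilobase of merged GENCODE 29 exons. In vehicle NFKBIA was the highest, at 1728 ± 93.2 (SD, n = 3), above NFKB1 at 859 ± 68.0 and RELA at 843 ± 183, whose ranges overlapped. Next came NFKBIB at 507 ± 71.4 and NFKB2 at 444 ± 66.0, also overlapping. TNFAIP3 (322 ± 28.5), NFKBIZ (302 ± 60.2) and RELB (246 ± 40.4) followed, each overlapping its neighbour. NFKBIE stood at 169 ± 23.0 and REL at 17.3 ± 5.26, with no overlap with the genes next to them.

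In FOLFIRINOX the order of the middle genes differed. NFKBIA was at 1630.0 ± 208 per kilobase and RELA at 799 ± 105. NFKB1 was now below RELA without overlap, at 528 ± 69.2, beside NFKBIB at 477 ± 21.0. NFKBIZ, at 400.0 ± 14, lay above NFKB2 (291 ± 47.4) and TNFAIP3 (226 ± 18.6) without overlap. Of REL's 13170 exonic bases, 5702 are shared with a noncoding gene listed at 0 in every library. The sources used here do not say how reads falling on 2 genes were counted, and REL's level per kilobase may be too low.

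The make-up of the subunit RNA was compared as shares of the 5 subunits' summed reads per kilobase, a ratio within each library that no scaling can change. RELA made up 43.2%, 44.3% and 42.3% in FOLFIRINOX P14, P15 and P19 and 37.9%, 35.9% and 30.2% in vehicle. NFKB1 made up 28.4%, 27.6% and 29.8% against 31.3%, 35.3% and 41.4%. The largest share was thus RELA in all 3 treated libraries, and the vehicle libraries differed among themselves, with NFKB1 above RELA in P19 and below it in P14. NFKB2 made up 15.7% ± 0.713 against 18.4% ± 0.822 (SD, n = 3).

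RELA's share was higher in FOLFIRINOX by 8.55 percentage points, and those of NFKB1 and NFKB2 differed by −7.41 and −2.65 points. The groups did not overlap for any of these 3. An exact two-sided permutation test gave p = 0.1 for each, the smallest that 3 against 3 libraries allow, and 0.15 after adjustment over 6 ratios. The shares of a library sum to a fixed total, so they are not separate results. RELA's own RNA was not called (log2 difference −0.06). RELB's share was 11.4% ± 0.721 against 10.2% ± 0.792 (exact p = 0.2) and REL's 0.996% ± 0.190 against 0.741% ± 0.308 (exact p = 0.3). Within P14, P15 and P19 the differences were 1.15, 1.01 and 1.60 points for RELB and 0.58, 0.12 and 0.065 for REL, above 0 in all 3. They were 5.25, 8.41 and 12 for RELA, −2.84, −7.73 and −11.6 for NFKB1 and −4.14, −1.80 and −2.01 for NFKB2.

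The summed RNA of the inhibitors NFKBIA, NFKBIB and NFKBIE was set against that of the 5 subunits in the same way. The log2 ratio was 0.39, 0.33 and 0.11 in FOLFIRINOX P14, P15 and P19 and 0.04, −0.13 and 0.10 in vehicle. The treated libraries were all above the controls, but FOLFIRINOX P19 and vehicle P19 were nearly equal. The mean difference was 0.28 (exact two-sided permutation p = 0.1, adjusted 0.15), and 0.02 within P19.

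**Figure D3:**
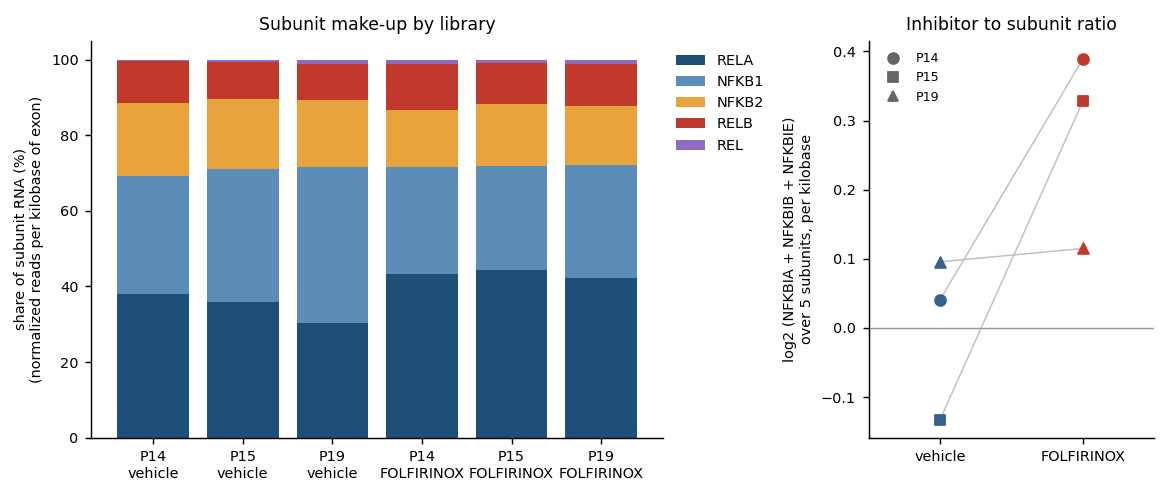
Left, share of each subunit gene in the summed normalized reads per kilobase of the 5 subunits (y axis, %) in each library; right, log2 ratio of inhibitor to subunit RNA per library, with grey lines joining libraries of the same P number. RELA fills 42.3% to 44.3% of each FOLFIRINOX bar and 30.2% to 37.9% of each vehicle bar.

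The genes most like NFKB1 and NFKBIZ over the 6 libraries were sought among 12108 genes with a mean of 100 or more, by the root mean square distance of values centred on the vehicle mean. These 2 had the smallest adjusted p among genes below and above 0. For NFKB1 they were TCTN2, DHTKD1 and MTMR4, at distances of 0.05, 0.06 and 0.06 on the log2 scale and with log2 differences of −0.73, −0.71 and −0.74. For NFKBIZ they were ZNF283, RAB9B and ZNF749, at 0.05, 0.06 and 0.06, none of them called, while those like NFKB1 were all called. The genes were picked on these same 6 libraries, so differences close to those of NFKB1 and NFKBIZ follow from the choice. 

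The genes around the core were read from lists by role, which were chosen with earlier results of these data known. Each count below stands beside 11.4% called higher and 12.2% lower of all genes tested. With the replicate block these were 22.3% and 21.8%. Of 15 other IκB-related proteins and deubiquitinases, 3 were higher and 1 lower in FOLFIRINOX, with a median log2 difference of −0.12. CYLD, a deubiquitinase that limits NF-κB signalling, had 12492, 11065 and 14117 normalized reads in the treated libraries and 5991, 6879 and 9089 in the controls, a rise of 0.79 ± 0.19 (limma adjusted p = 0.0107). TAX1BP1, an adaptor of A20, rose by 0.94 ± 0.21 (adjusted p = 0.0091) and RNF11, an A20 partner, by 0.56 ± 0.14 (adjusted p = 0.0158). USP18, an interferon-induced deISGylase, fell by 1.08 ± 0.26 (adjusted p = 0.0127). TAX1BP1 and RNF11 thus rose where TNFAIP3, the A20 gene, fell.

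None of these 4 was called without both P14 libraries (adjusted p = 0.0752, 0.0662, 0.0583 and 0.112). RNF11 was also lost without FOLFIRINOX P19 (0.0897) or vehicle P15 (0.0619), and USP18 without FOLFIRINOX P19 (0.052) or vehicle P14 (0.0551). BCL3, an atypical IκB, differed by −0.38 ± 0.24 (adjusted p = 0.288), and NFKBID, another nuclear IκB, by −0.78 ± 0.30 (0.0844, and 0.0279 with the replicate block). TNIP1, a ubiquitin-binding partner of A20, differed by 0.05 ± 0.16. With the block 3 genes of this list were higher and 4 lower.

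Of 18 genes of the IKK complex and its upstream kinases, 2 were higher and 1 lower (median 0.13). The shares of all genes tested were 11.4% and 12.2%. IKBKE, an inducible IKK-related kinase, fell from 915 ± 197 to 290.2 ± 29 normalized reads, by 1.64 ± 0.21 on the log2 scale (limma adjusted p = 2.7e-04), and stayed called whichever library was left out. Its relative TBK1 rose by 0.77 ± 0.24 (adjusted p = 0.0420), a call lost without FOLFIRINOX P14 or P19 or vehicle P14 or P15 (0.0962 to 0.147), without both P14 libraries (0.184), and with TMM scaling (0.0504), edgeR (0.068) or limma without trend (0.113). IRAK4, a kinase of interleukin-1 and Toll-like receptors, rose by 0.58 ± 0.14 (0.0140), lost without FOLFIRINOX P19 (0.0709) or both P14 libraries (0.0641).

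The core kinase genes were not called. CHUK (IKKα) differed by 0.26 ± 0.19, IKBKB (IKKβ) by 0.14 ± 0.16, and MAP3K14, the NIK kinase of the alternative pathway, by −0.21 ± 0.18 (limma adjusted p = 0.356, 0.571 and 0.440). IKBKG, the NEMO subunit gene, differed by −0.51 ± 0.23 (0.135, and 0.0351 with the block). It has a near-identical pseudogene, so its counts are uncertain. With the block 5 genes of this list were higher and 3 lower.

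Among 21 adaptors and ubiquitin ligases, 1 was higher and 1 lower (median 0.08), and 5 and 4 with the replicate block. All genes tested gave 11.4% and 12.2%, and 22.3% and 21.8% with the block. TRAF4, an adaptor of the TRAF family, rose from 864 ± 95.6 to 3220.4 ± 577, by 1.89 ± 0.18 (limma adjusted p = 3.4e-05). TRAF2, an adaptor of tumour necrosis factor receptors, fell from 586 ± 44.4 to 297 ± 46.0, by 0.99 ± 0.19 (adjusted p = 0.0043). Without vehicle P19, 2 genes of the list were higher and 3 lower. TRAF3, a brake on the alternative pathway, differed by −0.21 ± 0.16 (0.354). The cIAP genes BIRC2 and BIRC3 differed by 0.66 ± 0.24 and 0.39 ± 0.31 (0.0741 and 0.399, and 1.1e-05 and 0.0344 with the block).

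Of 13 genes of ligands that start the pathway, 4 passed the filter, and 4 had no read in any library. The most abundant was TNFSF12, the gene of the cytokine TWEAK, at 669.7 to 725 normalized reads in FOLFIRINOX and 618 to 954 in vehicle (limma adjusted p = 0.785). TNFSF13B, the gene of the B cell factor BAFF, had 64.9 to 144 against 136 to 221 (adjusted p = 0.0842, and 0.0024 with the block), and both were named after their values were seen. TNF had no read in 5 libraries, which does not show that it was absent, and 2.05 normalized reads in vehicle P14. IL1A had at most 8.23. IL1B had 333, 185 and 87.8 normalized reads in FOLFIRINOX P14, P15 and P19 against 172, 104 and 50.5, higher within each P number while the groups overlapped (0.85 ± 0.50, limma adjusted p = 0.251, and 0.0024 with the block). The 1 ligand called was IL33, named after its values were seen, at 20.7 to 26.7 against 0 to 4.24, and it passed the filter through its FOLFIRINOX libraries alone, so it had to differ. With the block 2 ligands were higher and 1 lower.

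Of 24 receptor genes 20 were tested, with 2 higher and 2 lower (median −0.17), and 4 and 5 with the block. All genes tested gave 11.4% and 12.2%, and 22.3% and 21.8% with the block. TNFRSF1B, the second tumour necrosis factor receptor, fell from 4774 ± 1046 to 2064 ± 525, by 1.21 ± 0.23 (limma adjusted p = 0.0032). TNFRSF14, the herpesvirus entry mediator, rose from 471 ± 124 to 1135 ± 262, by 1.28 ± 0.24 (0.0037). IL18R1, an interleukin-18 receptor chain, rose from 16.2 ± 7.32 to 99.7 ± 41.2 (2.53 ± 0.44, 0.0021). NOD1, an intracellular sensor of bacterial wall fragments, fell by 0.66 ± 0.20 (0.0373), a call lost without any library but vehicle P14 (0.0655 to 0.144) without both P14 libraries (0.0748), with common-total scaling (0.0868), with limma without trend (0.0508) and with no filter (0.0623). The main receptors TNFRSF1A and IL1R1 differed by −0.24 ± 0.19 and −0.36 ± 0.16 (0.390 and 0.130, the latter 0.0120 with the block).

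**Figure D4:**
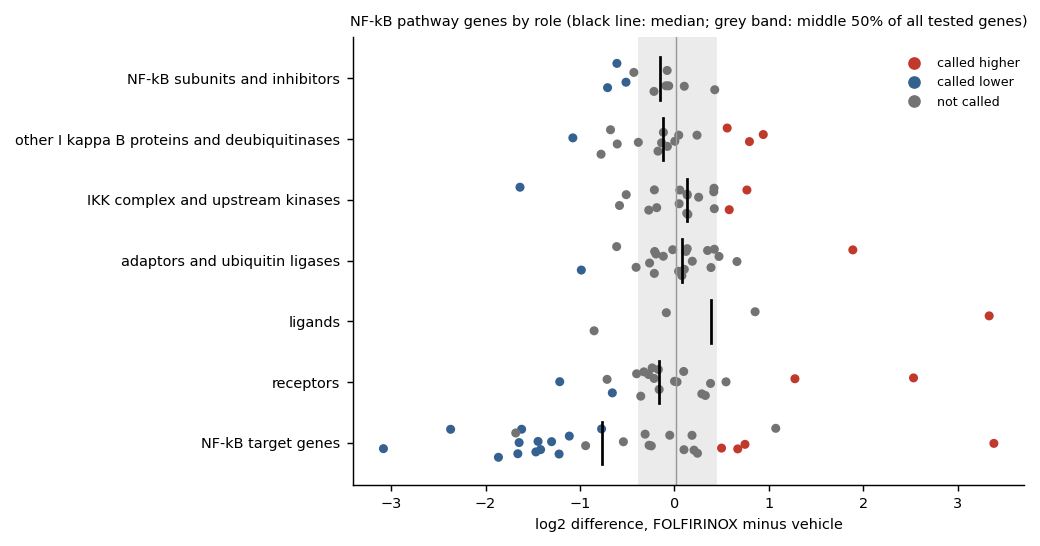
Log2 difference (x axis) of each tested gene on 7 lists of NF-κB pathway genes, red where called higher, blue where called lower and grey where not called, with a black line at each median and a grey band for the middle 50% of all tested genes. The medians of the subunit, regulator, kinase, adaptor and receptor lists lie within the band, from −0.37 to 0.44, as does that of the ligands, and that of the target genes lies below it.

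The last list holds 43 target genes of NF-κB. Like the other lists it was chosen with earlier results of these data known, so its counts are a description and not a test. Of the 29 tested, 4 were higher and 13 lower, beside 11.4% and 12.2% of all genes tested, with a median log2 difference of −0.77. With the replicate block 5 were higher and 17 lower, beside 22.3% and 21.8% of all genes. The other 14 were too low to test, and 6 of 9 mesenchymal markers were also called lower, whose part in these counts was not tested. CXCL8, the chemokine IL-8, had 1253, 486 and 422 normalized reads in FOLFIRINOX P14, P15 and P19, and its vehicle libraries 8795, 4055 and 4387, the P14 library being the highest of each group. Its log2 difference was −3.08 ± 0.40 (limma adjusted p = 2.9e-04). CXCL5, another neutrophil chemokine, had 297 to 422 against 1783 to 1970.2 (−2.37 ± 0.19, adjusted p = 6.3e-06).

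IL6 had 116, 64.9 and 94.3 against 312.5, 231 and 203 (−1.44 ± 0.28, limma adjusted p = 0.0038). LIF, a cytokine of the interleukin-6 family, fell by 1.86 ± 0.21 (9.1e-05), IER3, an immediate early survival gene, fell by 1.22 ± 0.15 (2.5e-04) and the pentraxin gene PTX3 fell by 1.11 ± 0.16 (6.2e-04). CXCL1 was low, at 20.5 to 81.3 against 86.0 to 191 (−1.64 ± 0.47, 0.0267), and was lost without FOLFIRINOX P15 or P19 or vehicle P14 or P15 (0.0588 to 0.0893) and with limma without trend (0.0742). The survival genes BCL2L1 and CFLAR rose by 0.67 ± 0.16 and 0.75 ± 0.15 (0.0112 and 0.0052), the former lost without FOLFIRINOX P19 (0.0661). SOD2, the mitochondrial superoxide dismutase, was higher by 0.50 ± 0.16 (0.0433), a call lost without any library but vehicle P19 (0.0685 to 0.135), without both P14 libraries (0.210) and with TMM scaling (0.0517), edgeR (0.0619), limma without trend (0.0935) or no filter (0.068). The fourth gene called higher was C3, named after its values were seen, at 35.5 to 62.8 against 2.12 to 5.61. It passed the filter through its FOLFIRINOX libraries alone, so it had to differ and adds no support to the count.

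Other targets were not called. CCL2, a monocyte chemokine, had 13584, 9397 and 4429 normalized reads in FOLFIRINOX P14, P15 and P19 and 16221, 12360 and 4931 in vehicle. It was lower in each treated library than in its control, and more than 3 times as high in P14 as in P19 in both groups. Its difference was −0.27 ± 0.45 (limma adjusted p = 0.705, and 0.0487 with the block). ICAM1, an adhesion receptor for leukocytes, differed by −0.54 ± 0.29 (0.213, and 0.0126 with the block). SAA1, named after its values were seen, went the other way. It had 1120, 716 and 362 normalized reads in FOLFIRINOX P14, P15 and P19 and 475, 314 and 208 in vehicle. Its difference was 1.07 ± 0.39 (limma adjusted p = 0.0728, and 3.1e-06 with the block).

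**Figure D5:**
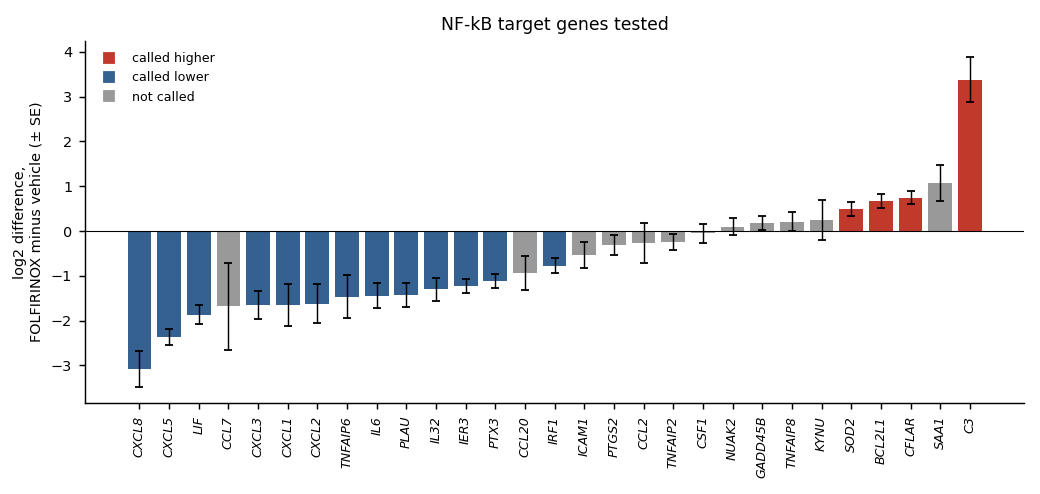
Log2 difference (y axis, bars from 0, ± SE) of the 29 tested NF-κB target genes, ordered by value and coloured by call. The chemokines CXCL8 and CXCL5 are the lowest, at −3.08 and −2.37, and BCL2L1 and CFLAR lie at 0.67 and 0.75. C3, at the far right, passed the filter through its FOLFIRINOX libraries alone.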

How the data were processed

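mRNA-enriched libraries of HPNE-hTERT cells were sequenced, 3 per group. The tools named, per the submitters' processing notes, are STAR 2.7.11b, FastQC 0.12.1, featureCounts 2.0.6 and DESeq2, with GRCh38 as the build. The sources used here name no annotation release, strand setting or DESeq2 design, and antisense partners may therefore share reads. The table deposited by the authors holds a library-size-normalized signal per library, and the authors' log2 fold changes, p-values and a Wald score. Every value was a whole multiple of its column's value of 1 read within 0.001 (100.0% of values), so reads were recovered. Even counts made up 72.3% to 74.8% of counts below 50, so a fragment may often count for more than 1, and counting intervals are not given.

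Groups were compared with limma 3.58.1 (trend on the mean) on log2(value + 1), two-sided, with Benjamini-Hochberg adjustment over 17951 genes. It was checked on simulated data drawn as independent libraries with the same dispersion for every gene. That check does not cover libraries that vary together by P number. Folds on this scale understate changes of low genes. Columns carry a P number that is in no label, so they were assigned to groups only. Deviations from group means correlated at 0.257, 0.282 and 0.288 between libraries of the same P number, above the 0.1 set for pairing. P numbers were therefore read as pairs in the replicate block. Between groups, libraries of different P numbers correlated at −0.263 to −0.027. Deviations sum to 0 within a group, so values above 0 for the same P number pull these below 0, and they add no support for pairing. Separate cultures are not stated in any label, and p-values then reflect only how these libraries vary, which may be technical. Libraries of a group differed by more than sampling noise (chi-square per degree of freedom 66.6 to 210.5). The members and gene lists were chosen with earlier results of these data known. Genes named beyond the 10 were fixed names and up to 4 per list and direction with the smallest adjusted p and, in the group where they were higher, a mean of at least 50; any other is said to be named after its values were seen. Exon lengths and gene coordinates are from GENCODE 29 and promoters from RefSeq. Other settings were a filter at 50 or none, a pseudocount of 0.5 or 8, TMM and common-total scaling, limma without trend, edgeR 4.0.16 and DESeq2 1.42.0 on the recovered reads, the block, and leaving out libraries. The ductal list of 9 genes leaves out 1 gene of the list as first drawn up, which is not reported here.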

Additional observations from a re-analysis of the deposited data

How the results depend on the processing

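NFKB1 was called lower under all settings, and no sign changed for NFKB2, NFKBIE, NFKBIZ, RELB or TNFAIP3. Leaving out 1 library at a time, 1 to 2 of the 10 core genes were called lower and 0 higher. The count was 1 lower with common-total scaling, limma without trend or without both P14 libraries, and 1 higher with the replicate block. Over all genes, 1318 to 2218 were higher and 1544 to 2204 lower with 1 library left out, 3995 and 3918 with the block, and 1162 and 1368 without both P14 libraries. Common-total scaling gave 2684 higher and 1699 lower, against 2047 and 2191 in the main setting, and moved the median of all genes from 0.02 to 0.13.

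The following values changed sign, and the cause was not tested. REL was −0.05 without FOLFIRINOX P19, −0.082 without both P14 libraries and −0.13 without vehicle P14, with a range of −0.13 to 0.32 over single libraries left out. RELA was 0.049 with common-total scaling and 0.15 without both P14 libraries. Single libraries left out gave −0.26 to 0.047, above 0 for P14 of either group and for P15 of vehicle. NFKBIA was 0.019 with common-total scaling and 0.0022 without both P14 libraries. NFKBIB was 0.032 and 0.043 in those settings and −0.20 to 0.0065 over single libraries left out. In the same way CCL2 ranged from −0.78 to 0.18 and the TNIP1 log2 difference from −0.024 to 0.15.

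With 1 library left out, the counts higher and lower were 2 to 3 and 0 to 2 for IκB-related genes, 0 to 2 and 1 to 1 for kinases, 1 to 2 and 1 to 3 for adaptors, 1 to 1 and 0 to 1 for ligands, 2 to 3 and 1 to 2 for receptors, and 3 to 4 and 10 to 14 for targets. Without both P14 libraries 0 IκB-related genes, 0 kinases and 0 ligands were higher, and 0 IκB-related genes and 1 receptor lower. The block gave 4 IκB-related genes lower, 5 kinases higher and 3 lower, 5 adaptors higher and 4 lower, 2 ligands higher and 1 lower, and 4 receptors higher and 5 lower. DESeq2, TMM scaling, edgeR and a filter at 50 each gave 2 IκB-related genes and 2 kinases lower, and a pseudocount of 8 gave 2 IκB-related genes lower. TMM scaling, edgeR and limma without trend gave 1 kinase higher. Common-total scaling gave 2 adaptors higher, and with limma without trend or no filter 1 receptor was lower, as with common-total scaling. The filter at 50 left 0 ligands higher. Differences between groups in the subunit shares and the inhibitor ratio moved by less than 1 pooled SD between libraries in every setting, including lengths of the longest transcript or, chosen after seeing the data, of exon bases not shared with another gene, though with the latter REL's share itself was higher in both groups, at 0.840% to 2.00% of subunit RNA over the 6 libraries.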
